A study of Mus musculus with 96 samples.

Results

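H3K27ac ChIP-seq peaks of mouse embryonic stem cells (ESCs) with and without Rybp are described here by their width, their chromosome and the H3K4me3 at them, and then against the RNA of the same line. All peaks of both deposited lists were taken, and rows of the same interval were to count once, though no interval occurred more than 1 time. This gave 120311 peaks, 57642 from Rybp+/+ and 62669 from Rybp-/- ESCs, of the 316354 in the 14 peak lists of the series. The cells were of the R7.15 line, a Rybp-floxed ESC line kept in serum with LIF. The same floxed cells served as Rybp+/+ ESCs without 4-hydroxytamoxifen (4-OHT) and as Rybp-/- ESCs after 4 days in 5 µM of it. The labels of lines made from R7.15 give Rosa26::CreERT2, a Cre recombinase expressed from a ubiquitous locus that 4-OHT activates, so deletion of Rybp and exposure to 4-OHT with active Cre cannot be told apart. There were 2 H3K27ac libraries per genotype, which the authors merged before peak calling, and 2 RNA-seq libraries per genotype. Each genotype is thus a single peak list of 1 line with no replicate left in it, so no test between the H3K27ac lists was possible, and the 95% intervals below cover counting error only.

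RYBP is a subunit of the non-canonical forms of Polycomb repressive complex 1 (PRC1), which place ubiquitin on histone H2A through the ligase RING1B and are known to keep germ line and developmental genes silent in ESCs. H3K27ac is placed by the acetyltransferases p300 and CBP at active enhancers and promoters, while H3K4me3 marks promoters, including those that Polycomb holds silent. An H3K27ac peak with H3K4me3 is therefore usually read as a promoter and one without it as a distal element.

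The lists gave for each peak its position in mm9, its fold enrichment over local background and its q value as -log10, all from MACS2. Fold enrichment was read only within its own list. A Rybp+/+ peak that overlapped no Rybp-/- peak by at least 1 bp is called lost, and a Rybp-/- peak that overlapped no Rybp+/+ peak is called gained. Both words describe the lists, because a region under the calling threshold is not shown to lack the mark. The read depth behind the lists is unknown, and its part in the number and width of the peaks was not tested.

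Windows of 200 bases are shown because the results turn on the peaks that hold them: the lost and the gained peak with the highest fold enrichment of their lists, the gained peak that lies just past Rybp, and 1 gained and 1 lost peak at a transcription start site (TSS). Each is from the plus strand of mm9, 5′ to 3′, and capitals mark CpG dinucleotides.
Lost peak of highest fold enrichment, chr7:114351858-114352057: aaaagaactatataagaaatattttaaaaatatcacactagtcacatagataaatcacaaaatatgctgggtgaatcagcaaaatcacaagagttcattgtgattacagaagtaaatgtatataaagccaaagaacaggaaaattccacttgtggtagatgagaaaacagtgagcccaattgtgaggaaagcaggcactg
Gained peak of highest fold enrichment, chr5:129891839-129892038: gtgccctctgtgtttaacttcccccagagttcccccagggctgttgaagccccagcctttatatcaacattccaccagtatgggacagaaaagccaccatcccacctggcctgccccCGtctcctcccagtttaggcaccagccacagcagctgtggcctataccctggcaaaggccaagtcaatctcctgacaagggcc
Gained peak past the 3′ end of Rybp, chr6:100173580-100173779: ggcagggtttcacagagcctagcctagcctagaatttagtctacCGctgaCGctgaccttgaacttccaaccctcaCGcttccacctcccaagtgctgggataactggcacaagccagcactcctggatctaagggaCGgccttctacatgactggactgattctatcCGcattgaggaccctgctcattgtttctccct
Gained peak at the TSS of Sycp1, chr3:102739709-102739908: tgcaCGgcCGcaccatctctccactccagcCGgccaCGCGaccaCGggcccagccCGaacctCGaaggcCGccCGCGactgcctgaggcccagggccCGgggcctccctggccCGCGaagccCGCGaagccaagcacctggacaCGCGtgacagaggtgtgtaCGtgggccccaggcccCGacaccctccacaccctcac
Lost peak at the TSS of Car14, chr3:95709370-95709569: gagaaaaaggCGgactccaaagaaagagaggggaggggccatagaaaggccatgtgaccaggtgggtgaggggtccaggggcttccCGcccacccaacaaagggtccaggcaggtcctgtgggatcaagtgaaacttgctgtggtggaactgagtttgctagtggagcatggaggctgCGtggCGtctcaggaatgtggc
The windows hold 0, 1, 5, 20 and 4 CpGs in this order, and 33.0, 57.5, 53.5, 73.5 and 58.5% of their bases are G or C. The CpG-rich one is that of Sycp1, a germ line gene with RING1B and H3K4me3 at its TSS, and the one without any CpG is an intergenic window.

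The larger number of peaks in Rybp-/- ESCs came from narrow peaks, and the wide peaks were fewer. Peaks under 300 bp numbered 7751 in Rybp+/+ and 9477 in Rybp-/- ESCs, or 122.3% as many (118.7 to 126.0). Peaks of 1 to 2 kb numbered 10515 and 11048, or 105% (102 to 108). From 2 to 4 kb there were 6769 and 6613, or 97.7% (94.4 to 101), which does not differ beyond counting error. The order turned over from 4 kb upwards. Peaks of 4 to 8 kb fell from 2435 to 2029, or to 83.3% (78.6 to 88.4). Peaks of 8 kb or more fell from 660 to 396, or to 60% (53.0 to 68.0), and the length under them from 8.05 to 4.48 Mb. The whole list covered 73.1 Mb in Rybp+/+ and 69.6 Mb in Rybp-/- ESCs. The H3K4me3 lists of the same line did not share the rise in number, with 39050 and 38013 peaks. Of the factors taken up below, WDR5 rose from 11965 to 12946 peaks and STAT3 fell from 2363 to 1917.

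**Figure D1:**
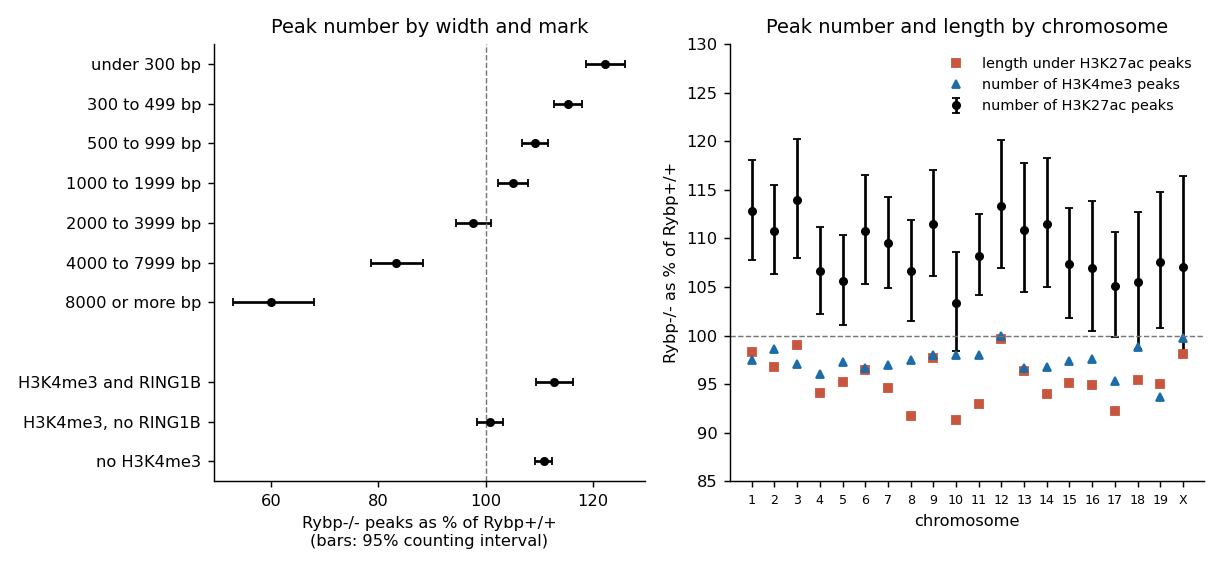
The left panel plots Rybp-/- peaks as a percentage of Rybp+/+ peaks by width and by mark, with 95% counting intervals, and the right panel plots the same percentage for each chromosome beside that for covered length and for H3K4me3 peaks. The number falls from 122.3% for the narrowest to 60% for the widest peaks, and every autosome has more H3K27ac peaks and less covered length in Rybp-/- ESCs.

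The widest regions were broken up or trimmed. None of the 660 Rybp+/+ peaks of 8 kb or more was lost, which allows a share of up to 0.579% (Wilson). They were met by 2.66 Rybp-/- peaks on average and by 12 at most, and 478 of them (72.4%) by 2 or more. Together the Rybp-/- peaks covered 90.8% of their length. In the other direction, 84 of the 396 Rybp-/- peaks of this width (21.2%) were met by 2 or more Rybp+/+ peaks, which covered 98.5% of their length. The widest Rybp+/+ peak was 50.7 kb long, spanned chr1:84832643-84883379 over Trip12 and Fbxo36, and was met by 5 Rybp-/- peaks. The next were those of Zfp532 (44.2 kb, met by 6), of Trim71, which encodes an RNA-binding ubiquitin ligase of early development (43.3 kb, met by 3), and of the glucose transporter gene Slc2a1 (40.9 kb, met by 2). The widest Rybp-/- peak was that of Trim71 with 41.0 kb, followed by those of Fbxo36 (32.4 kb), Slc2a1 (31.8 kb) and the histone gene Hist1h3b (25.4 kb).

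Among peaks that paired 1 to 1 between the lists, the Rybp-/- peak was more often the narrower one. Of 29139 such pairs, 16154 were narrower in Rybp-/- ESCs (55.4%, 54.9 to 56.0) and 12933 wider. The median widths were 853 bp and 824 bp. The share rose with width, from 48.7% of pairs under 300 bp (45.4 to 52.1) to 65.8% of those of 2 to 4 kb (64.3 to 67.2) and 75.3% of those of 8 kb or more (67.8 to 81.6).

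Lost and gained peaks were narrow and weak in their own lists. In Rybp+/+ ESCs 16531 peaks were lost, with a median width of 374 bp and a median fold enrichment of 3.33, against 946 bp and 4.98 for the shared peaks. In Rybp-/- ESCs 18369 peaks were gained, with a median width of 361 bp and a median fold enrichment of 3.25, against 852 bp and 4.56 for the shared peaks. Of the Rybp+/+ peaks under 300 bp, 62.4% were lost. This share fell to 26.3% at 500 to under 1000 bp, 5.73% at 1 to 2 kb and 0.414% at 2 to 4 kb, where 28 of 6769 were lost, and no peak of 4 kb or more was lost. Gained peaks followed the same order, with 61.4% of the Rybp-/- peaks under 300 bp and 0.892% of those of 2 to 4 kb, but 4 gained peaks were 4 kb or wider. Only 1 peak was lost among the 20% of the Rybp+/+ list with the highest fold enrichment, and 34 were gained among the 20% of the Rybp-/- list with the highest.

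Peaks with H3K4me3 were lost less often than peaks without it, also at the same width. Of the Rybp+/+ H3K27ac peaks, 21294 overlapped an H3K4me3 peak of the same genotype, and 2046 of these were lost (9.61%). Of the other 36348, 14485 were lost (39.9%), which is 30.2 percentage points more (29.6 to 30.9). Peaks with H3K4me3 were wider, with a median of 1297 bp against 506 bp. Averaged over the 7 width classes, each weighted by its number of peaks, the difference was 16.5 percentage points. Under 300 bp 42.9% of the peaks with H3K4me3 and 66.4% of those without were lost, and at 500 to under 1000 bp 11.8% and 32.6%.

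Gained peaks lacked H3K4me3 more often than shared ones too, but by less. Of the 22397 Rybp-/- peaks with H3K4me3, 3310 were gained (14.8%), and of the 40272 without it, 15059 were gained (37.4%). The difference was 22.6 percentage points (21.9 to 23.3) and 7.19 percentage points averaged over the width classes with the same weighting. Under 300 bp the shares were 58.8% with and 61.9% without H3K4me3, and at 500 to under 1000 bp 15.9% and 27.5%. At narrow peaks the mark thus separated lost from kept peaks by more than it separated gained from shared peaks.

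**Figure D2:**
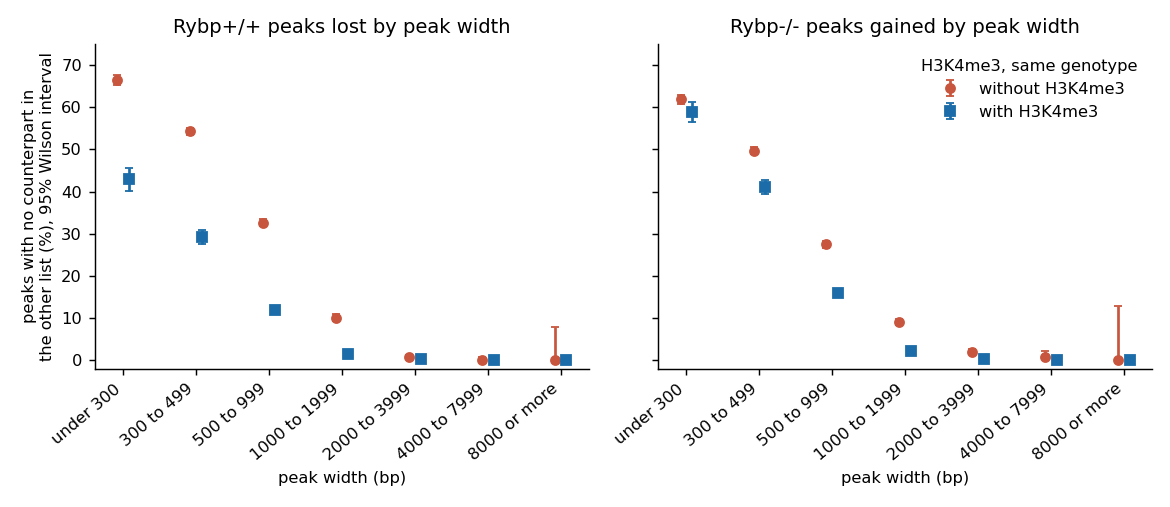
The share of Rybp+/+ peaks that were lost (left) and of Rybp-/- peaks that were gained (right) is plotted against peak width, for peaks with and without H3K4me3 in the same genotype, with 95% Wilson intervals. Lost peaks with H3K4me3 lie below those without it at every width under 4 kb, for instance 42.9% against 66.4% under 300 bp, while the gained shares there are 58.8% and 61.9%.

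Most lost and gained peaks had H3K4me3 in neither genotype, and those that had it mostly had it in both. Of the lost peaks, 1470 (8.89%) had H3K4me3 in both genotypes, 576 in Rybp+/+ ESCs alone, 90 in Rybp-/- ESCs alone, and 14395 (87.1%) in neither. Of the gained peaks, 2891 (15.7%) had it in both genotypes, 419 in Rybp-/- ESCs alone, 278 in Rybp+/+ ESCs alone, and 14781 (80.5%) in neither. Gained peaks were therefore set at sites with H3K4me3 in both genotypes more often than lost peaks, by 15.7 against 8.89%. Of the shared peaks of Rybp+/+ and Rybp-/- ESCs, 43.2% and 41.6% had it in both genotypes, and 51.5% and 52.9% in neither.

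RING1B, the ubiquitin ligase of PRC1, divided the peaks with H3K4me3 further. Its list came from R1 ESCs carrying an empty shRNA vector (shEV), another line with its own Rybp, so it marks where RING1B is found in ESCs and not where it was in either genotype here. H3K27ac peaks with both H3K4me3 and RING1B numbered 7787 in Rybp+/+ and 8777 in Rybp-/- ESCs, or 113% (109 to 116). Those with H3K4me3 and no RING1B numbered 13507 and 13620, or 101% (98.5 to 103), and those without H3K4me3 36348 and 40272, or 111% (109 to 112). With both marks 294 peaks were lost (3.78%) and 1297 gained (14.8%), which is 4.41 gained per lost (3.89 to 5.01). This ratio was 2.91 when only peaks with a -log10 q of at least 5 were kept, and 1.15 at peaks with H3K4me3 and no RING1B, where 1752 were lost (13.0%) and 2013 gained (14.8%). The gained shares thus did not differ beyond counting error (difference between -0.949 and 0.956 percentage points), and the ratios differed through the lost shares. Peaks with RING1B were also wider, with medians of 1504 against 1167 bp in Rybp+/+ ESCs. Covered length fell in both classes, to 93.9% with RING1B and 87.1% without it.

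WDR5, a core subunit of the complexes that methylate H3K4, and STAT3, the transcription factor that acts below LIF, were set against the peaks in the same way. Of the Rybp+/+ H3K27ac peaks with WDR5, 180 of 9398 were lost (1.92%), and of the Rybp-/- peaks with WDR5, 671 of 10460 were gained (6.41%). Of those with STAT3, 29 of 1224 were lost (2.37%) and 126 of 1156 gained (10.9%). These are 3.73 and 4.34 gained per lost peak, so a ratio above 1 was not seen with RING1B alone. They also carry the change of the lists themselves, from 11965 to 12946 WDR5 and from 2363 to 1917 STAT3 peaks, and are not a like measure. Peaks with either factor were wider than the list as a whole, with medians of 1855.5 bp and 1923 bp in Rybp+/+ ESCs against 655 bp, and their widths are in the range where few peaks were lost.

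Lost peaks lay closer to a peak of the other list than gained peaks did. The median distance from a lost peak to the nearest Rybp-/- peak was 1.22 kb, and 79.7% of lost peaks (79.1 to 80.3) had one within 5 kb. The median distance from a gained peak to the nearest Rybp+/+ peak was 3.22 kb, and 56.7% (56.0 to 57.4) had one within 5 kb. More than 50 kb from any TSS of a protein-coding gene lay 11.0% of the lost, 19.9% of the gained and 12.0% of the shared Rybp-/- peaks. Within 1 kb of such a TSS lay 9.62% of the lost, 12.0% of the gained, and 31.5% and 29.8% of the shared peaks of Rybp+/+ and Rybp-/- ESCs.

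The lost peak of the highest fold enrichment (8.41) was chr7:114351656-114352244, intergenic and 715 bp from the TSS of Rbmxl2, whose RNA was not called changed. The next 5 lay between 401 and 26000 bp from the nearest Rybp-/- peak. They were chr16:8560216-8560554 in an intron of Abat (8.23), which encodes GABA transaminase, chr2:61838925-61839316 near the bicarbonate transporter gene Slc4a10 (8.05), chr3:121496384-121496791 in an intron of the peroxisomal transporter gene Abcd3 (8.05), chr4:138985438-138986255 in an intron of the ubiquitin ligase gene Ubr4 (7.32), and chr10:7334557-7334912 in an intron of Lrp11 (7.14). Of these 6 peaks only that in Lrp11 had H3K4me3. They stood between percentiles 76.7 and 80.5 of the Rybp+/+ list.

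The gained peaks of the highest fold enrichment were stronger in their list and several were wide. The first was chr5:129891659-129892305 (13.2), 115 kb from the TSS of Sfswap. Next were chr2:35449490-35452112 in an intron of Dab2ip (10.8), which encodes a RAS GTPase-activating protein, and chr12:109747916-109752541 in an intron of the microtubule-binding gene Eml1 (10.4), 4626 bp wide. The 5173 bp peak chr9:46252686-46257858 (10.3) overlapped a RING1B peak and lay 125 kb from the nearest TSS, and chr9:42003190-42005626 (10.1) lay 66.7 kb from the sterol desaturase gene Sc5d. The peak chr11:79966546-79967506 (10.0), 101 bp from the TSS of Adap2, was the only 1 of these 6 with H3K4me3. They stood between percentiles 86.4 and 90.4 of the Rybp-/- list. Eml1 RNA was 4.77 and 5.39 CPM (gene counts scaled to the depth of the library) in the Rybp+/+ and 8.32 and 8.03 CPM in the Rybp-/- libraries, and it rose with a log2 fold change of 0.69 ± 0.12 (standard error, SE). The TSS of Eml1, too, gained a peak, as did that of Adap2, whose RNA was not called changed (0.27 ± 0.24). Sfswap (0.11 ± 0.04) and Dab2ip (0.17 ± 0.05) were called higher, calls that did not hold under every alternative. Sc5d was not called (-0.06 ± 0.06).

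All 19 autosomes carried more H3K27ac peaks and less covered length in Rybp-/- ESCs. The number of peaks ranged from 103% of the Rybp+/+ number on chromosome 10 to 114% on chromosome 3, with a median of 108%, and the intervals of chromosomes 10, 17 and 18 included 100%. The covered length ranged from 91.3% on chromosome 10 to 99.6% on chromosome 12. The share lost lay between 26.2% on chromosome 3 and 31.0% on chromosome 5, and the share gained between 25.7% on chromosome 10 and 32.1% on chromosome 1.

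The X chromosome stood apart by its lower turnover. It held 1050 and 1124 peaks, or 107% (98.4 to 116). Of its Rybp+/+ peaks 20.4% were lost (18.1 to 22.9), against 28.8% on the autosomes, and of its Rybp-/- peaks 23.4% were gained (21.0 to 26.0), against 29.4%. Its Rybp+/+ peaks also had a higher median fold enrichment than autosomal ones (5.13 against 4.12) and a larger median width (752.5 against 654 bp), and 48.7% of them had H3K4me3, against 31.0 to 41.3% on the autosomes. The part of these in the lower turnover was not tested. The Y chromosome held 3 and 4 peaks.

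The genome was also cut into tiles of 50 kb, of which 18103 held a peak in either list. The covered length was longer in Rybp-/- ESCs in 9725 tiles and shorter in 8372, so most tiles gained a little. Large changes went the other way, since 67 tiles were longer by over 5 kb and 464 were shorter by over 5 kb. Past 10 kb these numbers were 4 and 50. The tiles that lost most lay over the deubiquitinase gene Usp7 (34.5 to 18.0 kb, chr16:8700001-8750000), over Coro1c, which encodes an actin-binding protein (25.3 to 8.97 kb), over the histone acetyltransferase gene Myst4 (41.5 to 27.4 kb) and over the fatty acid elongase gene Elovl6 (32.1 to 18.7 kb).

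RNA did not follow covered length at each of these genes. Usp7 had 600.5 and 587 against 567 and 565 CPM (-0.07 ± 0.03) and Coro1c 222 and 229.8 against 215 and 212 CPM (-0.08 ± 0.03). Both were called lower (adjusted p = 0.0450 and 0.0407, edgeR quasi-likelihood test). Neither call held in the same test with the replicate number as a block (adjusted p = 0.0704 and 0.0508). Pitpnc1, a phosphatidylinositol transfer protein gene whose tile fell from 28.5 to 15.4 kb, had 82.7 and 79.5 CPM in Rybp+/+ and 42.5 and 41.1 CPM in Rybp-/- libraries. Enah, an actin regulator whose tile fell from 17.8 to 5.1 kb, had 356 and 341 CPM against 242.5 and 240.6 CPM. RNA of both genes was called lower, against 22.7% of all genes tested, and fell by 0.96 ± 0.05 and 0.53 ± 0.03 on the log2 scale. Myst4 RNA went up from 262 and 258 to 348 and 355 CPM (log2 fold change 0.44 ± 0.03), and Elovl6 RNA was 165 and 163 against 160.3 and 162 CPM, which did not pass the test.

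The tiles that gained most were, in order, a pair of neighbouring tiles on chromosome 6, of which one lies past the 3′ end of Rybp and the other spans that end, a tile with Lsp1 and Tnnt3 on chromosome 7 (5.06 to 17.8 kb), one with BC057022 on chromosome 5 (5.67 to 15.9 kb) and one with Lif, the gene of the cytokine that keeps mouse ESCs in self-renewal (8.57 to 18.4 kb, chr11:4150001-4200000). Lif RNA was 10.9 and 11.1 CPM in Rybp+/+ and 15.3 and 16.2 CPM in Rybp-/- libraries. Lsp1, which encodes an actin-binding protein of leukocytes, had 0.789 and 0.795 against 2.34 and 1.53 CPM. BC057022 had 7.44 and 7.18 against 15.1 and 14.7 CPM. RNA was called higher in each of the 3 genes, against 22.8% of all genes tested, with log2 fold changes of 0.52 ± 0.08, 1.29 ± 0.27 and 1.02 ± 0.09. Afap1, an actin filament-associated gene whose tile on chromosome 5 rose from 4.08 to 13.7 kb, had 9.78 and 9.57 against 17.1 and 15.8 CPM (0.76 ± 0.09). Not each gene in such tiles rose. In the tile of Tlk2 and Mettl2 (10.6 to 20.4 kb), Tlk2 rose (0.25 ± 0.04) and Mettl2 did not pass the test (-0.10 ± 0.05). In that of Sema3f and Rbm5 (0.409 to 9.94 kb), Sema3f rose (0.97 ± 0.15) and Rbm5 did not pass it (0.04 ± 0.04).

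The Rybp locus is where the lists differed most in covered length. Rybp lies on the minus strand at chr6:100178560-100237435, 58.9 kb long. Its RNA was 110.4 and 110.2 CPM in the Rybp+/+ and 24.8 and 25.0 CPM in the Rybp-/- libraries, a log2 fold change of -2.15 ± 0.05 (adjusted p = 8.09e-27, Benjamini-Hochberg adjustment of the edgeR quasi-likelihood test) and the groups were far apart. The labels do not give which exons the floxed allele loses. The promoter peak ranked high in both lists, at percentile 98.0 of fold enrichment in Rybp+/+ and 98.7 in Rybp-/- ESCs, and was 3621 bp and 3209 bp wide.

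Along the gene body the covered length fell from 35.7 to 21.1 kb, with 26 peaks in each list. The 4 Rybp+/+ peaks between 100210095 and 100214127 had no Rybp-/- counterpart. Past the 3′ end the opposite was seen. In the 60 kb beyond the gene, Rybp+/+ ESCs had 4 peaks over 4.26 kb, at percentile 66.2 of their list at most, and Rybp-/- ESCs had 22 peaks over 40.1 kb, up to percentile 90.7 of theirs. The widest was chr6:100160816-100173079 (12264 bp), and the 5265 bp peak next to it, chr6:100173240-100178504, which begins just past the annotated end of Rybp, was the widest gained peak of the whole list. H3K4me3 over the same 60 kb was 2.84 kb in 3 peaks and 5.08 kb in 6 peaks. No WDR5 peak was called there in either genotype. The 200 bases shown from the widest gained peak hold 5 CpGs and 1 match to the ESRRB letters TCAAGGTCA on either strand.

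**Figure D3:**
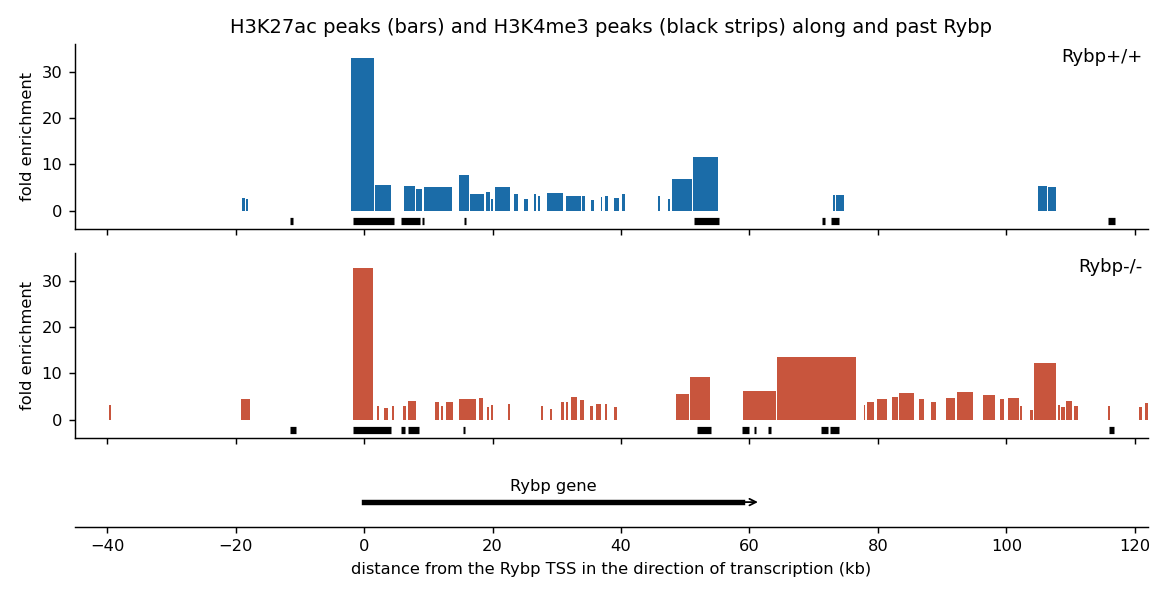
H3K27ac peaks are drawn as bars of their fold enrichment, and H3K4me3 peaks as black strips, against distance from the Rybp TSS in the direction of transcription, with Rybp+/+ ESCs above and Rybp-/- ESCs below. Heights are on the scale of each list, and in the 60 kb past the gene the Rybp-/- list holds 22 peaks where the Rybp+/+ list holds 4.

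Base composition around the summits differed between classes. In windows of 300 bp around the summit, the median share of G and C was 47.7% in lost, 49.7% in gained, and 51.3% and 51.0% in the shared peaks of Rybp+/+ and Rybp-/- ESCs. CpG-rich windows, with an observed to expected CpG ratio over 0.6, made up 2.53% of the lost, 5.53% of the gained, and 21.7% and 20.3% of the shared peaks. Among peaks with RING1B, the lost and the gained ones were alike, with 56.4% (of 307) and 55.7% (of 1353).

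Letters of 8 transcription factor motifs were counted in the same windows on both strands, as a description and not as sites. The AP-1 letters TGANTCA stood in 10.9% of the gained peaks without H3K4me3 (10.4 to 11.4), in 8.92% of the lost ones (8.47 to 9.39), and in 10.1% and 9.34% of the shared peaks under 500 bp without H3K4me3 in the Rybp+/+ and Rybp-/- lists. The lost window shown from chromosome 7 holds a match to it. The E2F letters TTCCCGC, which E2F6 of the PRC1.6 complex can bind, stood in 8.72% of the gained peaks with RING1B (7.33 to 10.3) and in 6.51% of the lost ones (4.26 to 9.85). They stood in 6.26% and 6.36% of the shared peaks with H3K4me3 of Rybp+/+ and Rybp-/- ESCs, and in 2.77% of all peaks of each list. These letters hold a CpG, and CpG-rich windows were more frequent among peaks with RING1B, whose part in these shares was not tested. The octamer ATGCAAAT of OCT4 stood in 1.32% of the gained and 1.12% of the lost peaks without H3K4me3, the ESRRB letters in 1.06% and 1.19%, the STAT letters TTCCNGGAA in 1.06% and 0.932%, the GATA letters AGATAAG in 3.85% and 3.66%, the KLF letters GGGTGTGGC in 0.923% and 0.683%, and the E-box CACGTG in 3.79% and 4.28%.

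RNA-seq of the same line gave 79374770 and 81049618 counts on genes in the Rybp+/+ and 75496499 and 76340755 in the Rybp-/- libraries. Nothing in the labels says that the replicates came from separate cultures, so the p-values measure only the spread between these libraries. Of 16955 genes tested, 3873 (22.8%) were called higher and 3847 (22.7%) lower in Rybp-/- ESCs, 45.5% in all, a call being an adjusted p under 0.05. Only 6.6% were higher with a log2 fold change above 1, and 1.24% were lower with one below -1. Genes were sorted by whether an H3K27ac peak lay within 1 kb of any of their TSSs in both lists, in 1 of them or in neither.

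Genes that gained a TSS peak were called higher more often than genes at large. With levels of expression not matched, the share of lower genes among those that lost one did not differ from that of all genes beyond counting error. Of 1149 genes with a gained TSS peak 800 were tested, and 331 of these were higher (41.4%, 38.0 to 44.8) and 79 lower (9.88%), against 22.8% and 22.7% of all genes. Of 387 genes with a lost TSS peak 213 were tested, of which 24 were higher (11.3%, 7.69 to 16.2) and 55 lower (25.8%, 20.4 to 32.1), and of those with a shared peak 29.1% were lower. The median log2 fold change was 0.36 with a gained, -0.09 with a lost, -0.03 with a shared and 0.22 with no TSS peak. A log2 fold change above 1 was called in 161 of the genes with a gained peak, against 5 below -1. Without a library, the number of lower genes with a lost peak was 37 to 44, or 16.5 to 19.9% of those tested.

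The level of expression differed between these groups and was set beside the shares. The median level was 2.33 CPM for genes with a gained, 2.07 CPM for those with a lost, 0.703 CPM for those with no and 30.1 CPM for those with a shared TSS peak. Between 1 and 4 CPM, 47.4% of the genes with a gained peak and 34.7% of those with no peak were higher. Between 4 and 16 CPM the shares were 49.3% and 35.2%. The share was thus larger with a gained peak than with none at a similar level. Genes with a lost peak were lower in 10.5, 20.9, 30.0 and 64.7% of cases under 1, from 1 to 4, from 4 to 16 and from 16 CPM, where they numbered 86, 43, 50 and 34. Those with a shared peak were lower in 3.74, 14.4, 24.1 and 36.0% of cases in the same classes, and those with no peak in 2.79, 11.6, 17.7 and 31.3%. In each class the share of lower genes was thus largest with a lost peak, though these groups were small and no interval was set on them.

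RING1B lay at a TSS of 74.1% of the tested genes with a gained, 60.2% with a shared, 40.4% with a lost and 41.3% with no peak. With RING1B, 271 of 593 genes with a gained peak were higher (45.7%), and without it 60 of 207 (29.0%). Genes with RING1B and no H3K27ac peak in either list were higher in 33.6% of cases, and those with neither RING1B nor a peak in 20.7%. H3K4me3 was at a TSS in Rybp+/+ ESCs for 89.6% of the genes with a gained, 98.1% with a shared, 74.2% with a lost and 52.1% with no peak.

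**Figure D4:**
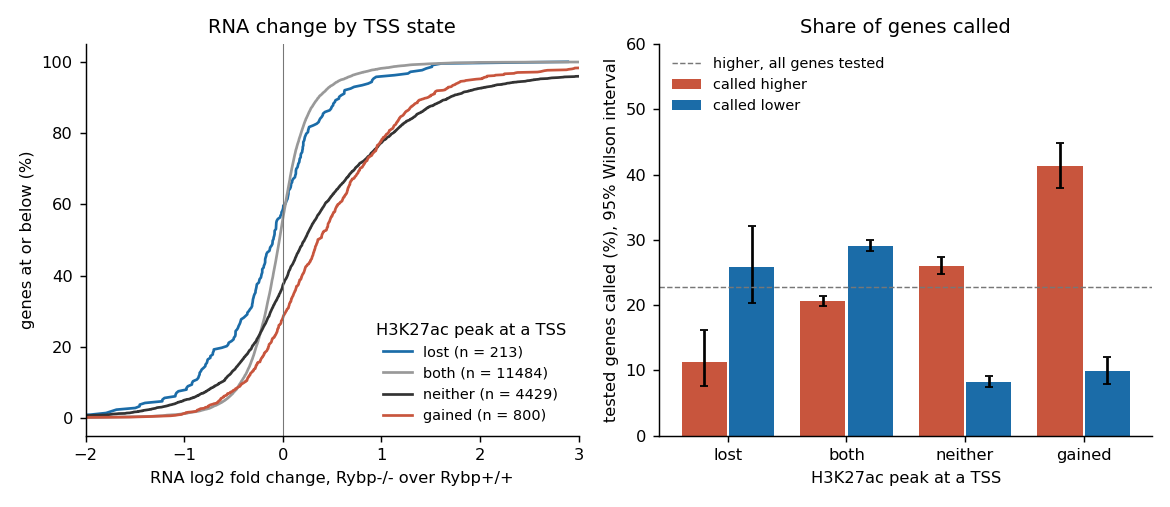
The left panel plots the cumulative share of genes against the RNA log2 fold change for the 4 states of H3K27ac at a TSS, drawn from -2 to 3, and the right panel plots the share called higher or lower with 95% Wilson intervals. Genes with a gained peak lie to the right, with 41.4% higher and 9.88% lower against the dashed line at 22.8%, and genes with a lost peak have 25.8% lower, beside 29.1% with a shared peak and 22.7% of all genes. Levels of expression are not matched between the states.

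At genes with a TSS peak in both lists, the covered length within 5 kb of their TSSs was compared. This length cannot exceed the window, 10001 bp for a gene with a single TSS, so it cannot lengthen at genes that fill it and misses changes outside it. It was shorter by over 1 kb in Rybp-/- ESCs at 2189 genes, of which 806 were lower (36.8%) and 395 higher (18.0%). It was longer by over 1 kb at 662 genes, of which 131 were lower (19.8%) and 266 higher (40.2%). At the 8633 genes in between, 27.9% were lower and 19.7% higher. The median levels were 66.1 CPM with shorter, 21.7 CPM with longer and 25.0 CPM with little changed coverage, and the part of level in these shares was not tested. Coverage was shortened most at Usp7 (40138 to 25121 bp), Coro1c (28275 to 15218 bp) and Dot1l, the H3K79 methyltransferase gene (19534 to 9507 bp).

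Among the genes with a gained TSS peak, those with the largest changes were nearly silent before. Tmem92-ps had 0.0763 and 0 CPM in the Rybp+/+ and 5.66 and 6.00 CPM in the Rybp-/- libraries, with its peak at chr11:94644359-94644686. Dub3, a deubiquitinase gene, had 0.165 and 0.124 against 6.61 and 6.05 CPM. Gm13078 had 0.0127 CPM, which is 1 count, and 0 CPM against 3.27 and 3.59 CPM. Gm4840, Dub1a and Gm11545 went the same way, from at most 0.115 CPM to at least 2.17 CPM. Dub1a, Dub3, Gm13078, Tmem92-ps and Gm11545 belong to families or pseudogenes with near-identical copies, between which the alignment and counting could split reads, so both their peaks and their RNA are uncertain.

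Single-copy genes with a gained peak came next. Trpv3, a heat-sensitive cation channel gene of skin, had 0.382 and 0.211 against 2.16 and 2.47 CPM (log2 fold change 2.96 ± 0.31), with its peak at chr11:73081086-73081495. Sycp1, which encodes the transverse filament of the synaptonemal complex, had 0.954 and 0.708 against 6.18 and 6.69 CPM (2.95 ± 0.18), with its peak at chr3:102739464-102739965, where H3K4me3 was called in both genotypes. Both genes were picked among the called genes with the largest changes. Other genes gained a peak and fell, among them the snoRNA host gene Snhg11 (13.5 and 13.8 against 7.35 and 6.21 CPM, -1.01 ± 0.10).

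Genes with a lost TSS peak moved in both directions. Car14, a membrane-bound carbonic anhydrase gene, had 3.02 and 3.43 CPM in Rybp+/+ and 1.14 and 0.857 CPM in Rybp-/- libraries (-1.69 ± 0.22), and its lost peak was chr3:95709360-95709622, with a fold enrichment of 3.34. Tnnt1, the slow skeletal troponin T gene, had 10.6 and 10.4 against 4.39 and 4.6 CPM (-1.22 ± 0.11). Satb1, which encodes a chromatin organizer, had 5.78 and 6.82 against 2.71 and 3.21 CPM (-1.09 ± 0.14). RNA of these 3 genes fell, and within 5 kb of its TSSs Satb1 had 300 bp under peaks in Rybp+/+ and 624 bp in Rybp-/- ESCs.

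Others rose although their TSS peak was lost. Angptl2, which encodes a secreted angiopoietin-like protein, had 8.60 and 9.80 CPM in Rybp+/+ and 22.9 and 22.2 CPM in Rybp-/- libraries (1.29 ± 0.08), and its lost peak was chr2:33072359-33072942. Hic1, a transcriptional repressor gene, had 0.776 and 1.01 against 2.52 and 2.37 CPM (1.45 ± 0.24). Prrt4 had 1.22 and 1.02 against 3.14 and 3.25 CPM (1.51 ± 0.21). The lost peaks of these 3 genes stood at percentiles 10.8, 26.7 and 8.27 of their list, and those of Car14, Tnnt1 and Satb1 at 26.6, 25.8 and 43.8.

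**Figure D5:**
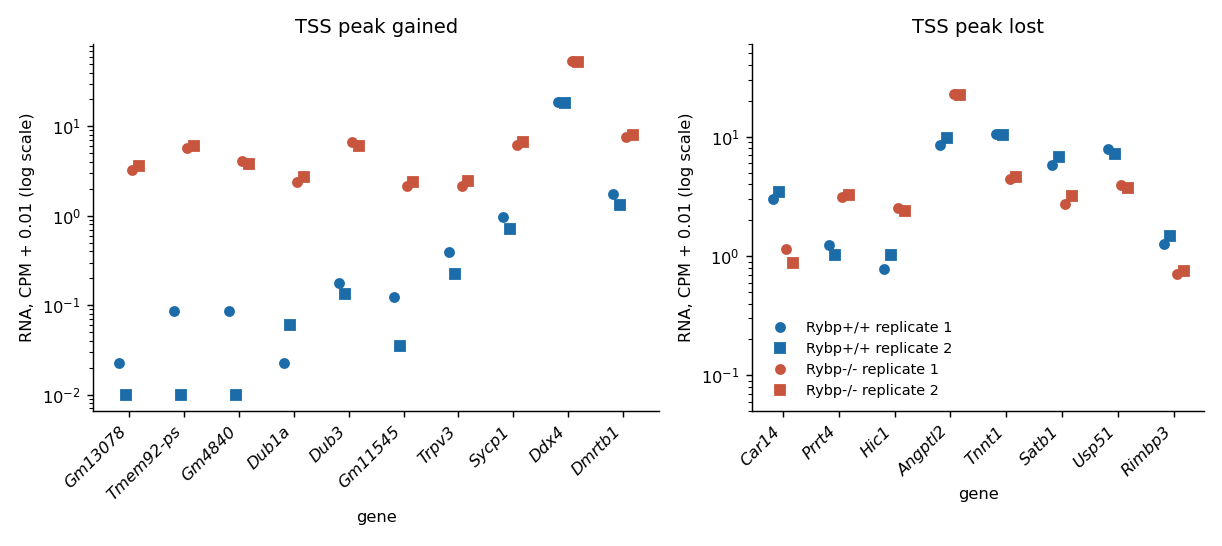
RNA of named genes with a gained (left) or lost (right) TSS peak is plotted in each of the 4 libraries as CPM plus 0.01 on a log axis. The 10 genes with a gained peak, Ddx4 and Dmrtb1 included, are higher in both Rybp-/- libraries, and those with a lost peak go both ways, such as Car14 down and Angptl2 up.

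Lists of genes grouped by their known roles were followed next, by the RNA test and by the H3K27ac within 5 kb of their TSSs. The lists were chosen with earlier results of these data known, so their counts are a description. Germ line genes known as targets of PRC1.6, the E2F6, MGA and L3MBTL2 form of PRC1, rose in 12 of 17 cases and fell in 3, against 22.8% and 22.7% of all genes, with a median log2 fold change of 1.56. All 17 had RING1B at a TSS, as did 40.4 to 74.1% of all tested genes, depending on their TSS state. The H3K27ac of these 17 was sparse, with a TSS peak in both lists at 6, a gained one at 3 and none at 8, and 8.64 against 11.9 kb in all. Of the 16926 tested genes with an annotated TSS, 11484 had a TSS peak in both lists, 800 a gained one and 4429 none. Coverage was longer at 9 and shorter at 1 of the germ line genes, against 41.7% and 58.1% of all tested genes with coverage.

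The 3 germ line genes with a gained TSS peak were Sycp1, Ddx4 and Dmrtb1. Ddx4, the germ cell RNA helicase gene, had 18.6 and 18.1 against 54.3 and 52.5 CPM (1.54 ± 0.06), with a new peak of fold enrichment 2.24. Dmrtb1, a DM domain transcription factor gene of male germ cells, had 1.76 and 1.32 against 7.58 and 8.02 CPM (2.34 ± 0.15), with a peak of fold enrichment 2.88. These peaks were weak ones of the Rybp-/- list, whose median was 3.86. Taf7l, a testis form of a TFIID subunit, went from 1.56 and 2.16 to 10.9 and 11.2 CPM (2.57 ± 0.14) and from 686 to 1090 bp, and Dazl, a germ cell RNA-binding protein gene, from 9.45 and 8.87 to 27.1 and 27.0 CPM (1.56 ± 0.08) and from 583 to 924 bp.

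Other germ line genes rose with no H3K27ac peak at all. Mael, of the piRNA pathway, had 9.35 and 9.44 against 30.2 and 33.9 CPM (1.77 ± 0.08). Mov10l1, the piRNA helicase gene, had 5.22 and 5.02 against 17.3 and 19.0 CPM (1.83 ± 0.09). Neither had a peak within 5 kb of a TSS in either list. The cohesin genes of meiosis Stag3 and Smc1b went down, from 61.3 and 64.1 to 39.2 and 39.7 CPM and from 10.6 and 9.87 to 6.28 and 6.96 CPM.

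Genes of the 2-cell-like state, which a small fraction of cultured ESCs is known to enter, rose without any called H3K27ac. Of 11 listed genes 8 were tested, all 8 rose, against 22.8% of all genes, and their summed level went from 0.360 to 0.598 CPM in Rybp+/+ to 71.4 to 72.7 CPM in Rybp-/- libraries. Zscan4c, for instance, had 0.102 and 0.0373 against 20.6 and 20.7 CPM. No peak lay within 5 kb of a TSS of these 8 genes in either list. The Zscan4 genes are near-identical copies of each other, so neither their single values nor the absence of peaks there is certain. In bulk libraries a larger share of such cells and more RNA per cell cannot be told apart.

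Of 17 tested genes of the pluripotency list 7 rose and 7 fell, against 22.8% and 22.7% of all genes. A TSS peak in both peak lists was found at 16, as it was at 11484 of the 16926 tested genes with an annotated TSS. Coverage near the TSSs of the pluripotency genes was shorter at 15 and longer at none (145.9 to 137.9 kb in all). Several of these genes filled the window, such as Tdgf1 with 10001 bp in both lists, so their coverage could not lengthen. The TSS peaks themselves reached beyond it, and that of Klf2 went from 27633 to 11329 bp and that of Fgf4 from 15704 to 8242 bp. Others changed little, such as that of Tdgf1 from 15770 to 15555 bp and that of Pou5f1 from 12372 to 12129 bp. Over all 13348 tested genes with coverage the share with shorter coverage was 58.1%, and it was 65.1% among the 8607 with 10 CPM or more. Nanog rose from 400.0 and 405 to 557 and 567 CPM (0.48 ± 0.03) while its coverage went from 10105 to 9872 bp. Tbx3, a T-box factor of the naive state, rose from 158 and 166 to 277 and 276 CPM (0.77 ± 0.03), with 12103 and 11395 bp. Utf1, an ESC chromatin factor, fell from 429 and 459 to 312 and 314 CPM (-0.50 ± 0.03), with 7925 and 7715 bp, so shorter coverage went with RNA in either direction. Pou5f1, which encodes OCT4, had 622 and 648 against 648 and 651 CPM and did not pass the test.

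The enzymes, readers and remodellers that act on H3K27ac were also followed. Of 12 genes 3 rose and 6 fell, against 22.8% and 22.7% of all genes, with log2 fold changes between -0.25 and 0.21, so no member moved by much. Ep300, which encodes p300, had 288 and 297 against 271 and 275 CPM (-0.10 ± 0.03), and adjusted p was 0.162 without Rybp-/- replicate 1 and 0.0576 without Rybp-/- replicate 2. Crebbp, which encodes CBP, had 64.4 and 67.4 against 67.2 and 68.8 CPM and did not pass the test. Chd4, the remodeller of the NuRD deacetylase complex, fell from 672 and 660.4 to 561 and 559.6 CPM (-0.25 ± 0.03), and its coverage from 8407 to 4489 bp. Hdac2, a deacetylase gene, rose from 178 and 174 to 199.7 and 209.5 CPM (0.21 ± 0.03).

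Among 24 genes of PRC1, 6 rose and 12 fell, Rybp itself among these, against 22.8% and 22.7% of all genes. The PRC1.6 genes Mga (534 and 506 against 382 and 391 CPM, -0.43 ± 0.03), Pcgf6 (104 and 107 against 81.9 and 85.1 CPM, -0.34 ± 0.04) and L3mbtl2 (178 and 181 against 149 and 149 CPM, -0.27 ± 0.03) fell, and their coverage went from 6625 to 4349, 4402 to 2679 and 6505 to 3771 bp. Kdm2b, which brings PRC1.1 to CpG islands, fell from 142 and 144 to 95.5 and 93.8 CPM (-0.60 ± 0.04), with 19823 and 15404 bp. RNA and coverage were thus both lower in these 4 genes. Not each member moved so, since Cbx6 fell (-0.33 ± 0.05) while its coverage went from 2511 to 2610 bp. Pcgf5 fell (-0.23 ± 0.07) with 2029 and 2030 bp.

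Bcor, Phc2 and E2f6 rose, each with longer coverage. Bcor, a PRC1.1 corepressor gene on the X chromosome, went from 61.0 and 61.9 to 83.6 and 80.5 CPM (0.42 ± 0.04) and from 3657 to 8514 bp. Phc2, a polyhomeotic subunit gene of canonical PRC1, went from 24.7 and 24.5 to 44.3 and 46.0 CPM (0.88 ± 0.06) and from 2401 to 5526 bp. E2f6 went from 23.1 and 24.9 to 37.0 and 37.8 CPM (0.64 ± 0.06) and from 588 to 792 bp. Yaf2, the paralogue of Rybp, was the only member to lose its TSS peak (fold enrichment 3.06). Its RNA was 7.26 and 7.72 against 8.66 and 9.30 CPM (0.26 ± 0.10, adjusted p = 0.0390, Benjamini-Hochberg adjustment of the edgeR quasi-likelihood test), and this call was lost with DESeq2 (0.100) and without the filter on low counts (0.0787), Rybp+/+ replicate 1 (0.181), Rybp-/- replicate 1 (0.0512) or Rybp-/- replicate 2 (0.234). Of the 8 PRC2 genes, 4 rose and 2 fell, beside the same shares of all genes. Coverage was shorter at 7 of them, against 58.1% of all tested genes with coverage and 65.1% of those with 10 CPM or more.

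Of 8 genes of the LIF and STAT3 pathway 3 rose and 3 fell, against 22.8% and 22.7% of all genes. The feedback inhibitor gene Socs3 rose from 68.8 and 73.0 to 89.2 and 89.3 CPM (0.33 ± 0.04), and the receptor gene Lifr fell from 55.4 and 54.5 to 49.0 and 47.1 CPM (-0.19 ± 0.05), with its coverage going from 4207 to 1870 bp. Of 18 lineage transcription factor genes known to be held by Polycomb 14 were tested, 3 rose and 2 fell, which is no more than the share of all genes, and 12 had no TSS peak in either list although 17 had RING1B there. Otx2, a factor of the primed epiblast, fell most, from 40.3 and 37.3 to 10.8 and 11.6 CPM (-1.79 ± 0.07), and its TSS peak stayed, 592 and 517 bp wide. Hand1, a trophoblast and heart factor, gained a TSS peak with 1784 bp of coverage. Its RNA was 2.28 and 1.78 against 2.97 and 3.18 CPM (0.60 ± 0.19), and adjusted p was 0.0990 without Rybp+/+ replicate 2 and 0.0523 without Rybp-/- replicate 2.

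Markers of the labelled cell type and of other cells were checked beside these counts. All 9 ESC markers had a TSS peak in both lists and a summed level of 6059 to 6143 CPM in Rybp+/+ and 6153 to 6181 CPM in Rybp-/- libraries. Of 7 fibroblast or feeder markers 6 rose, beside 22.8% of all genes, and their summed level went from 56.5 to 57.2 CPM in Rybp+/+ to 114 to 119.99 CPM in Rybp-/- libraries, with Col1a1 at 20.8 and 20.7 against 39.2 and 39.4 CPM and Lum between 0.0127 and 0.131 CPM. Of the 6, Dcn lost its call with DESeq2 (adjusted p = 0.0604) and without Rybp+/+ replicate 2 (0.131), Rybp-/- replicate 1 (0.178) or Rybp-/- replicate 2 (0.0831). None of the 7 had a TSS peak in either list. The summed level of 6 primitive endoderm markers went from 7.34 to 8.03 CPM to 12.1 to 13.0 CPM, with 2 of the 6 rising beside the same 22.8%, and that of 4 trophectoderm markers from 5.44 to 6.30 CPM to 7.32 to 7.43 CPM, with 3 called higher, of which Hand1 and Elf5 lost the call without Rybp-/- replicate 2 (adjusted p = 0.0523 and 0.0915, edgeR quasi-likelihood test) and Cdx2 without Rybp-/- replicate 1 (0.151). Of the mesoderm markers none was called, and of the neural ones Pax6 fell (1.92 and 1.64 against 0.565 and 0.870 CPM, -1.31 ± 0.28). The part of such cells in the gained peaks and in the genes that rose was not tested.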

How the data were processed

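H3K27ac, H3K4me3, WDR5 and STAT3 peak lists of Rybp+/+ and Rybp-/- ESCs, the RING1B list of shEV ESCs and the RNA-seq table of the knockout were used. Per the study's methods, the authors trimmed reads with Trim Galore 0.6.6, aligned ChIP-seq reads to mm9 with Bowtie2 2.3.5.1, removed duplicates with samtools 1.3.1, merged the replicates and called peaks against input with MACS2 2.1.1 at a stated FDR of 0.01. The deposited H3K27ac lists go beyond it, since 1381 (2.40%) of the Rybp+/+ and 2294 (3.66%) of the Rybp-/- peaks had a -log10 q under 2. The deposited lists give, as the authors' values, a fold enrichment ratio and the -log10 of the q value per peak. RNA-seq reads were aligned by the authors with STAR 2.6.1b, and the deposited values are raw counts per gene from HTSeq-count 2.0.1. Rows of that table that name no gene held 13.7 to 14.1% of each library and were left out.

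Peaks were compared with Python 3.11.15 and pandas 2.3.3, with 95% Wilson intervals for shares, Newcombe intervals for differences of shares and log-normal counting intervals for ratios. Genes and TSSs were those of GENCODE on mm9. Distances from peaks to a TSS used protein-coding genes only, while the sorting of genes by TSS peaks used genes of all types. Counts were tested with the edgeR 4.0.16 quasi-likelihood test on the 4 libraries, with its filter on low counts, TMM scaling and Benjamini-Hochberg adjustment (R 4.3.3). CPM used the same scaling. This test was tried on simulated data with 200 changed genes and recovered 36.7, 70.2, 73.5 and 95.8% of those with an absolute log2 fold change of 0.25, 0.5, 1 and 1.5 for this comparison, over 16834 genes. The depth behind the peak lists is unknown.

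The members and gene lists were chosen with earlier results of these data known. Named were Rybp, the 6 lost and 6 gained peaks of highest fold enrichment, the 4 widest peaks of each list, up to 8 called genes per lost or gained TSS state with the largest absolute log2 fold change and a mean of at least 1 CPM, and the members of the lists. The tiles, the coverage extremes and Snhg11 were chosen after their values were seen. Alternatives were stricter q values, coverage of at least 50% of a peak in place of an overlap of 1 bp, equal numbers of peaks, other TSS windows, DESeq2 1.42.0, no filter on low counts, the replicate number as a block, and leaving out each RNA-seq library. Tfcp2l1, Sox1, Zscan4a, Tcstv1 and Tcstv3 were not analysed here, and some named genes are not reported here.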

Additional observations from a re-analysis of the deposited data

How the results depend on the processing

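Stricter q values were applied to every list. With a -log10 q of at least 2, the lost share of narrow minus wide peaks was 54.3 percentage points. With at least 5, the same difference was 57.4 for lost and 50.6 for gained peaks, the difference without minus with H3K4me3 was 31.7 for lost and 19.6 for gained peaks, and 57.8% of paired peaks were narrower in Rybp-/- ESCs. With equal numbers of peaks, ranked by q, the narrow minus wide differences were 56.7 and 50.1 and the H3K4me3 differences 32.3 and 21.2. With at least 50% of a peak required to be covered, they were 56.0 and 56.2, and 36.8 and 26.9. The peak number on X turned below 100%, to 98.99% with a -log10 q of at least 5 and to 99.9% with equal numbers, a setting that brings the genome-wide ratio to 100% by its construction. Gained peaks per lost peak with RING1B and H3K4me3 were 2.91 and 3.48 under these settings, which were chosen for this ratio after seeing the data. The share of peaks of 8 kb or more was not tested by these settings, which remove only peaks of high q, and these peaks are among the strongest.

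Of the 7720 genes called, 1330 had an absolute log2 fold change above 1. DESeq2 called 6680 genes and the test without the filter 6692. Leaving out a library gave 6081 to 7197 calls, with 37 to 44 lower genes at a lost and 283 to 310 higher genes at a gained TSS peak. With the replicate block 7724 genes were called, 55 and 335 of them in these groups. The replicate numbers did not pair the libraries, since deviations of same-numbered libraries had a correlation of -0.02. Of 174 named genes 129 were called, 27 lost the call under at least 1 alternative and 0 reversed. Among these 27 were Sox2, Esrrb and Sall4 of the pluripotency list, Brd2, Hdac1, Mbd3 and Ep300 of the acetylation list, Yaf2, Cbx2, Pcgf5 and Phc3 of PRC1, Eed of PRC2, and Stat3 and Jak1 of the LIF list. The cause was not tested. Merged libraries and 1 cell line limit what the peak lists can show.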

Other observations

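In bins of 1 Mb the larger number of H3K27ac peaks was spread over the genome. Of 2395 bins, 1478 held more peaks in Rybp-/- than in Rybp+/+ ESCs, 612 held fewer and 305 the same number, and 5% of bins lay at or below a difference of -7 and 5% at or above 13 peaks. Of the RNAs of the mitochondrial genome, 10 of 15 tested were higher and 0 lower, against 22.8% and 22.7% of all genes, by the edgeR quasi-likelihood test, with a median log2 fold change of 0.22.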
